A study of Mus musculus with 22 samples.

Results

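The step examined was the passage from ana/telophase to early-G1 in G1E-ER4 cells from which CTCF had been depleted with auxin. G1E-ER4 is a mouse erythroblast line lacking endogenous GATA1, and in the cells used both CTCF alleles carried an auxin-inducible degron fused to mCherry. All 6376 chromatin domain boundaries and all 16370 chromatin loops of the deposited tables were members, and for each the strength in the auxin treated early-G1 map was set against that in the auxin treated ana/telophase map. These maps came from 4 of the 22 in situ Hi-C libraries of the series, 2 per stage. The same stages without auxin (4 libraries) served as the reference, and the prometaphase and mid-G1 maps gave the start and the end of the course.

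Cells were arrested with nocodazole, exposed or not to auxin late in the arrest, and released for 30 min (ana/telophase) or 60 min (early-G1), auxin being kept during release. The sample protocol states a slightly shorter release for ana/telophase than the 30 min of the sample labels. The auxin treated ana/telophase and early-G1 cells differed in more than time. The auxin receptor OsTiR was delivered with GFP fused to a mitotic degron for ana/telophase and with plain GFP for early-G1. Ana/telophase cells were sorted on reduced GFP before DNA content had halved, early-G1 cells on the DNA content of divided cells, and fewer cells were used for ana/telophase. Cells of every auxin treated group were also gated for low mCherry, and the tables hold no other measure of CTCF protein. The parts of construct, sort, cell number and stage in any difference below cannot be told apart.

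A boundary separates domains whose loci contact each other more often than they contact loci beyond it, and a loop is a pair of loci that meet more often than their surroundings do. In interphase, cohesin extrudes chromatin until it is held at CTCF bound in convergent orientation, which gives structural loops and many boundaries. Promoters and enhancers, together called cis-regulatory elements (CREs), also contact each other, and both kinds of architecture are lost in mitosis and rebuilt on entry into G1.

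CTCF recognises a long motif, part of which is commonly spelled CNAGGGGGC. Matches to this spelling at 3 boundaries with large changes (Ovgp1, D2hgdh and a site on chromosome X), and at both summits of the loops at Epor and Rad21, are shown because the strengths of these sites are followed below, and because the matches at each loop face each other. Each is 29 bases of mm9, read 5′ to 3′ on the strand of the match, with the match in capitals. Those on the plus strand lie at chr3:105773121-105773149 (Ovgp1), chr1:95729488-95729516 (D2hgdh), chrX:10779606-10779634 (the decreasing boundary), chr9:21768026-21768054 (Epor, upstream) and chr15:51822689-51822717 (Rad21, upstream). Those on the minus strand lie at chr9:21947951-21947979 (Epor, downstream) and chr15:51998816-51998844 (Rad21, downstream). A match is a description of the letters and not evidence of binding. By the authors' classes, given below, the Rad21 loop is a CRE loop, without CTCF and cohesin at both anchors.
Ovgp1 boundary: aggtgcagccCAAGGGGGCtgaagaagga
D2hgdh boundary: agaggagccaCCAGGGGGCacttttctca
X boundary, decreasing: tccagtttgtCTAGGGGGCatccttgagc
Epor loop, upstream: gcagctccttCCAGGGGGCggggccagct
Epor loop, downstream: gcagtgcccaCAAGGGGGCgctaactccc
Rad21 loop, upstream: tcttccccccCGAGGGGGCggccagctcc
Rad21 loop, downstream: agtcattcagCCAGGGGGCaacgtcgtac

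Boundary strength is ΔIS, the unlogged insulation score at its highest within 120 kb minus that at the boundary. Loop strength is the ratio of observed contacts to those expected from a local donut-shaped surround. Replicates were merged before either table was made, so each boundary or loop had 1 value per map. These merged values allow no test between stages or treatments, and maps of single replicates were not analysed here, so every comparison below is a description. Spread is given as the SD of the medians of the 20 chromosomes, which measures variation along the genome, not between experiments. The number of contacts behind a value is not given in the tables.

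Boundaries strengthened at the median in CTCF-depleted cells over this step. Where 4 values follow each other, their order is prometaphase, ana/telophase, early-G1, mid-G1. Median ΔIS with auxin was 0.0874, 0.198, 0.305 and 0.332. Early-G1 was the higher of both stages at 5070 of 6376 boundaries, or 79.5% (95% Wilson interval 78.5 to 80.5, counting error only). The median log2 ratio of early-G1 to ana/telophase was 0.57 ± 0.04 (SD over 20 chromosomes), a 1.49-fold increase, and ranged from 0.49 on chromosome 12 to 0.65 on chromosome 16. At 48.9% of boundaries ΔIS was at least 1.5-fold higher in early-G1, and at 8.64% at least 1.5-fold lower. With 0.1 added to both values, 2032 boundaries were past 1.5-fold instead of 3120. Without auxin these shares were 51.5% and 7.07%, and the median log2 ratio was 0.60 ± 0.03. The difference between the treated and untreated steps was not tested.

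The boundary increase was close to complete at early-G1 in CTCF-depleted cells. Of the increase of mean ΔIS from prometaphase to mid-G1, 50.5% fell before ana/telophase, 45.2% between ana/telophase and early-G1, and 4.31% after early-G1. In untreated cells 48.1%, 38.5% and 13.3% fell in the same intervals.

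The average hid differences among the 5 boundary clusters, which the authors made by k-means from standardised strengths that include these same maps. The clusters therefore describe the courses, and nothing is supported by their differences. Cluster 3 had nearly equal levels with and without auxin, with a median ΔIS that went from 0.323 to 0.526 over the step with auxin, and from 0.333 to 0.515 without. Its median log2 step with auxin was 0.68 ± 0.04, and 94.6% of its 1731 boundaries were higher in early-G1. Without auxin its step was 0.58 ± 0.04. The step was the larger with auxin on 20 of 20 chromosomes, a difference that was not tested. Cluster 2, of 2036 boundaries, was weaker with auxin at both stages (0.305 and 0.480 against 0.479 and 0.774), yet its proportional step was of like size, 0.65 ± 0.06 with auxin and 0.69 ± 0.04 without.

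In cluster 1, of 1300 boundaries, ΔIS stayed low with auxin. The median went from 0.0924 to 0.111, a log2 step of 0.29 ± 0.17, while without auxin it went from 0.188 to 0.301, a log2 step of 0.68 ± 0.07. Only 62.0% of cluster 1 boundaries were higher in early-G1 with auxin, compared with 84.5% without, and the treated step was below the untreated step on all 20 chromosomes. Of the increase of mean ΔIS in cluster 1, 25.8% came after early-G1 with auxin and 27.3% without, the highest share of clusters 1 to 4 in both treatments. With 0.1 added to both values, the cluster 1 step with auxin was 0.13.

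Cluster 4 showed the opposite arrangement. Over its 590 boundaries the median ΔIS went from 0.128 to 0.173 with auxin, and from 0.0932 to 0.0876 without. The median log2 step was 0.51 ± 0.17 with auxin and 0.09 ± 0.28 without, and was the larger with auxin on 19 of 20 chromosomes. With 0.1 added to both values, the step with auxin was 0.31. Cluster 5, whose 719 boundaries the authors regarded as mostly spurious calls, was low throughout, with medians of 0.0708 and then 0.0624 with auxin and a log2 step of -0.22 ± 0.30.

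**Figure D1:**
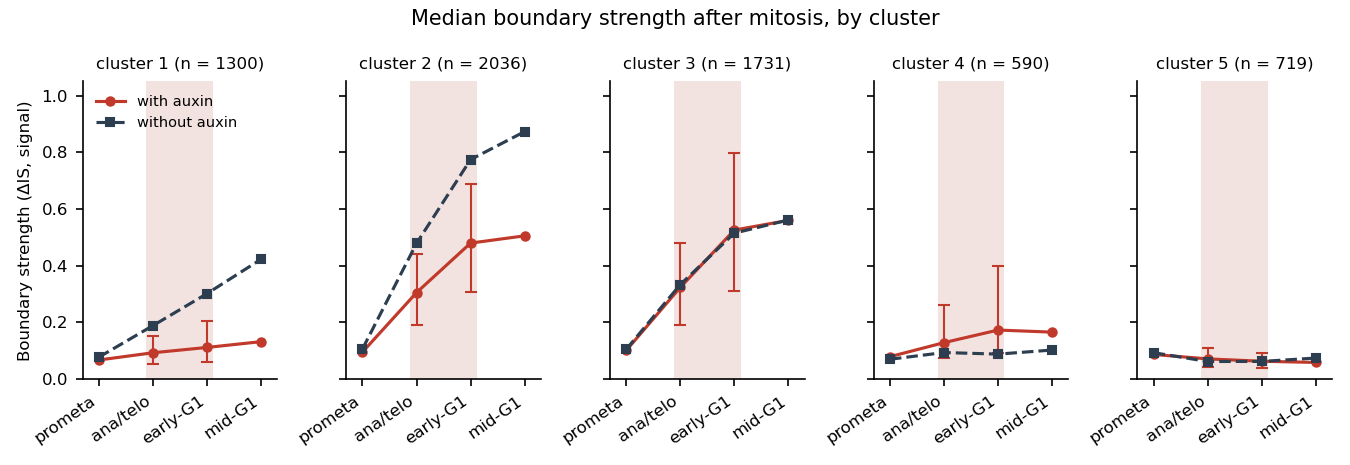
Median boundary strength (ΔIS) in the 4 stages for each boundary cluster, with auxin (red circles, solid) and without (dark squares, dashed). Bars on the ana/telophase and early-G1 points span the quartiles of single boundaries with auxin, and the shaded interval is the step described. With auxin, medians in clusters 2 and 3 went from 0.305 to 0.480 and from 0.323 to 0.526, whereas cluster 1 went from 0.0924 to 0.111.

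Boundaries were also grouped by position, using the anchors of loops that were called in these same maps. Of all boundaries, 3152 (49.4%) lay within 20 kb of the midpoint of a loop anchor. Their median ΔIS went from 0.312 to 0.503 with auxin, a log2 step of 0.67 ± 0.04. The other 3224 had medians of 0.114 and 0.136 and a step of 0.41 ± 0.08. In CTCF-depleted cells 91.1% of the boundaries at anchors and 68.2% of the others were higher in early-G1. Cluster make-up differed between these groups. The boundaries away from anchors held 708 of the 719 in cluster 5 and 463 of the 590 in cluster 4. The parts of position and cluster in the contrast were not separated. Among the 688 boundaries whose anchors were all structural, the median went from 0.217 to 0.330 with auxin, and among the 328 whose anchors were all of CRE loops from 0.326 to 0.527. Without auxin the respective medians were 0.358 and 0.584 for structural anchors, and 0.380 and 0.582 for CRE anchors.

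A transcription start of a protein-coding gene lay in 944 boundary bins, or 14.8%, against 9.87% of all other 10 kb bins of the genome. Cluster 2 held the most (19.1%) and cluster 5 the fewest (4.73%). With auxin the boundaries with a start went from a median ΔIS of 0.300 to 0.503, and those without a start from 0.182 to 0.264. Within cluster 3 the log2 step with auxin was 0.80 ± 0.13 at the 298 boundaries with a start and 0.66 ± 0.05 at the 1433 without. Without auxin these steps were 0.63 ± 0.12 and 0.57 ± 0.05. With auxin the steps with and without a start were 0.52 ± 0.43 and 0.23 ± 0.17 in cluster 1. They were 0.69 ± 0.14 and 0.64 ± 0.07 in cluster 2, and 0.57 ± 0.46 and 0.50 ± 0.16 in cluster 4.

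The 5 boundaries with the largest increase of ΔIS with auxin, sought in clusters 1 to 4, all belonged to clusters 2 or 3. These hold 2036 and 1731 boundaries, against 1300 and 590 in clusters 1 and 4. A ranking by difference also favours strong boundaries. Median ΔIS in ana/telophase with auxin was 0.305 and 0.323 in clusters 2 and 3, against 0.0924 and 0.128 in clusters 1 and 4. The largest increase lay at chr1:193410001-193420000 (mm9, cluster 2), in a bin with no protein-coding start. There ΔIS with auxin was 0.0555, 0.772, 1.93 and 1.49. Without auxin it was 0.112, 1.14, 2.45 and 2.11, so that both courses peaked in early-G1. The next, chr1:183060001-183070000 (cluster 3), had a start of Nvl, a nuclear AAA ATPase involved in ribosome biogenesis, within 10 kb. Its ΔIS with auxin was 0.101, 0.488, 1.56 and 1.54, and 0.0991, 0.521, 1.17 and 1.15 without. At this boundary the early-G1 value was higher with auxin than without.

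The boundary at chr3:105770001-105780000 (cluster 3) held a start of Ovgp1, which encodes an oviduct glycoprotein. Chromosome 3 carries a translocation in these cells. Its ΔIS went from 1.22 to 2.18 over the step with auxin, and from 1.46 to 2.19 without. At chr16:91680001-91690000 (cluster 2), with a start of the replication fork gene Donson in the bin, ΔIS was 0.702 and then 1.62 with auxin, and 1.02 and then 2.12 without. The boundary at chr1:95720001-95730000 (cluster 3), with a start of the metabolic enzyme gene D2hgdh, differed from these in its prometaphase level. Its ΔIS was 1.34, 1.57, 2.52 and 2.63 with auxin, and 2.25, 1.19, 2.17 and 2.499 without.

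The 5 largest decreases among clusters 1 to 4 were smaller in size, from -0.229 to -0.523, against 0.922 to 1.16 for the increases. The lowest was at chrX:93630001-93640000 (cluster 4), where ΔIS with auxin was 0.0485, 0.580, 0.0567 and 0.274. The ana/telophase value was the highest, followed by that of mid-G1. Without auxin ΔIS there was 0.137, 0.166, 0.0579 and 0.227. At chr1:187350001-187360000 (cluster 1), near structural, dual-function and CRE loop anchors, ΔIS went from 0.659 to 0.377 with auxin but from 0.976 to 1.20 without. At chrX:10770001-10780000 (cluster 1) it went from 0.332 to 0.102 with auxin and from 0.0343 to 0.337 without.

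The 9-letter motif stretch was searched in 2 spellings, CNAGGGGGC and CNAGATGGC, on both strands of the mm9 genome. Of the boundary bins, 46.0% held a match (95% Wilson interval 44.8 to 47.3), compared with 42.8% of all other bins, so these letters are common everywhere. Bins 10 to 50 kb away from the boundaries held a match in 44.6% to 47.2% of cases, so the share is not particular to the boundary bin. The shares were 45.8%, 49.6%, 47.7%, 41.7% and 35.7% in clusters 1 to 5. Boundaries with and without a match had log2 steps with auxin of 0.59 ± 0.05 and 0.56 ± 0.05, and without auxin of 0.61 ± 0.06 and 0.59 ± 0.04. The first spelling alone was found in 16.5% of boundary bins and 12.5% of other bins.

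Loops were classified by the authors from peaks at their anchors, without use of loop strength. Structural loops (4837) have CTCF and cohesin at both anchors and a CRE at no more than 1, CRE loops (4642) have a CRE at both and CTCF with cohesin at no more than 1, dual-function loops (3370) have both kinds at both anchors, and 3521 other loops fit none of these. The loops were called in these same maps, so each had to stand out in at least 1 of them.

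Loop strength also increased over the step in CTCF-depleted cells, by less than it did in untreated cells. The median with auxin was 1.04, 1.30, 1.42 and 1.42, and without auxin 1.08, 1.55, 1.81 and 1.90. With auxin 11440 of 16370 loops (69.9%, 95% Wilson interval 69.2 to 70.6) were stronger in early-G1 than in ana/telophase, and without auxin 82.6%. The median log2 ratio was 0.13 ± 0.02 with auxin and 0.22 ± 0.01 without. Strength was at least 25% higher in early-G1 at 21.1% of loops with auxin, and lower by the same factor (at least 20%) at 5.19%, and the shares without auxin were 32.9% and 2.28%.

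The order of the categories by log2 step differed between the treatments, a difference that was not tested. CRE loops had the largest log2 step with auxin, 0.15 ± 0.03, with 74.2% of loops stronger in early-G1, and the smallest without auxin, 0.12 ± 0.02. Structural loops had the smallest step with auxin, 0.09 ± 0.03, with 64.1% stronger in early-G1, and the largest without, 0.30 ± 0.01, with 92.0% stronger. The CRE step exceeded the structural step on 19 of 20 chromosomes with auxin and on 0 of 20 without. Dual-function loops (0.12 ± 0.03 with, 0.23 ± 0.03 without) and other loops (0.14 ± 0.03 with, 0.22 ± 0.02 without) lay between.

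Scale matters for the first of these orders. Structural loops were weak in CTCF-depleted cells, whose median strength with auxin went from 1.15 to 1.23 over the step, whereas CRE loops stood at 1.51 and 1.67. Counted as the excess of mean strength over the expected value of 1, structural loops went from 0.193 to 0.281, or 1.46-fold, and CRE loops from 0.590 to 0.779, or 1.32-fold, so that on this scale the structural step was the larger with auxin. Without auxin the excess of structural loops grew 1.61-fold and that of CRE loops 1.28-fold, the same order as on the log2 scale. Among loops whose geometric mean strength over both stages with auxin lay between 1.2 and 1.5, the log2 step with auxin was 0.12 ± 0.05 for 1572 structural loops, 0.10 ± 0.04 for 996 dual-function loops, 0.14 ± 0.03 for 1167 CRE loops and 0.14 ± 0.04 for 1307 other loops. Structural loops were thus not the lowest category at matched strength, nor were CRE loops above other loops. On both scales the step of structural loops was smaller with auxin than without, and that of CRE loops larger.

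**Figure D2:**
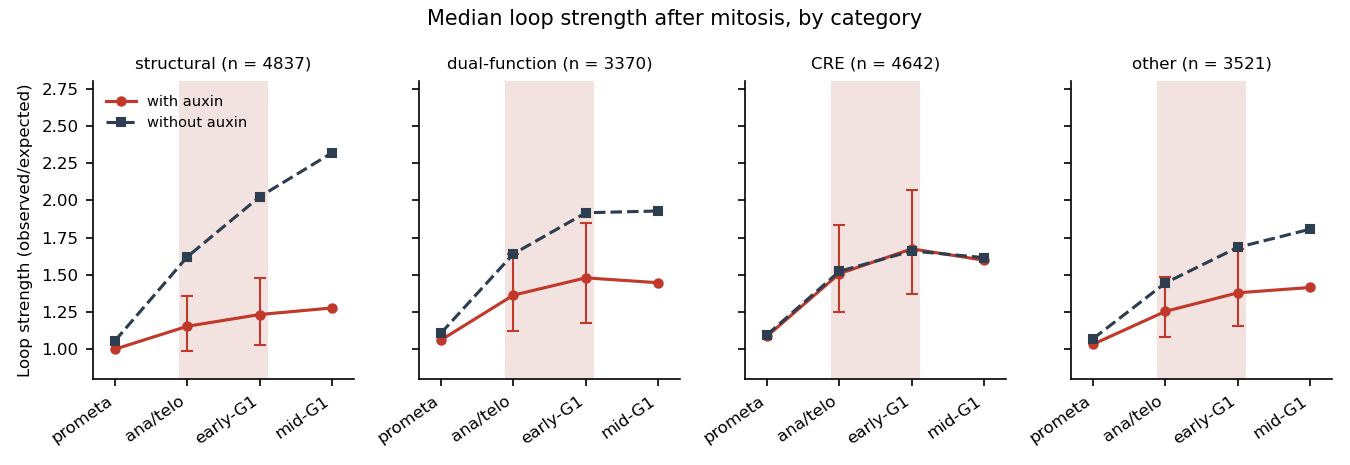
Median loop strength (observed over expected) in the 4 stages for each loop category, with auxin (red circles, solid) and without (dark squares, dashed). Bars on the ana/telophase and early-G1 points span the quartiles of single loops with auxin, and the shaded interval is the step described. The CRE loop courses lie together, 1.51 to 1.67 with auxin over the step and 1.52 to 1.66 without, while structural loops went from 1.15 to 1.23 with auxin and from 1.62 to 2.03 without.

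**Figure D3:**
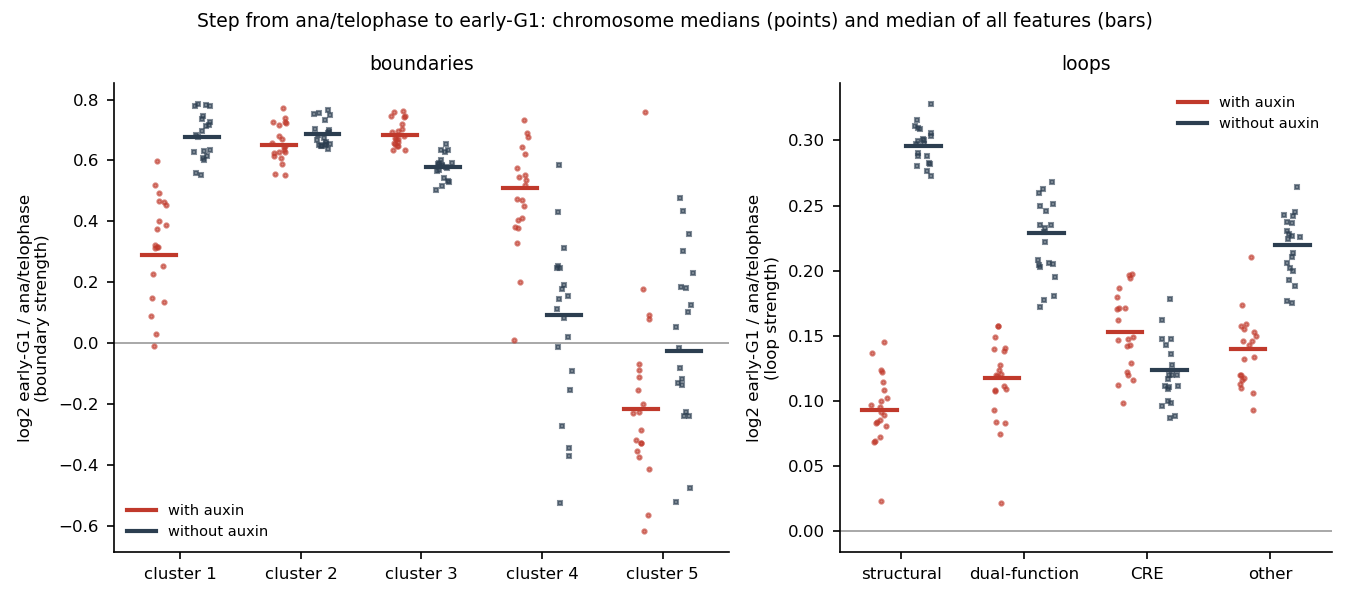
Median log2 ratio of early-G1 to ana/telophase on each of the 20 chromosomes (points) and over all features (bars), for boundary clusters (left) and loop categories (right), with auxin (red) and without (dark). The structural and CRE loops change places between treatments, at 0.09 and 0.15 with auxin and 0.30 and 0.12 without, and cluster 1 lies at 0.29 with auxin and 0.68 without.

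What followed early-G1 also depended on category. With auxin the median strength of CRE loops was lower in mid-G1 (1.60) than in early-G1 (1.67), on all 20 chromosomes by the median log2 ratio, and that of dual-function loops was lower too (1.45 against 1.48), on 18 of 20. Structural loops went on from 1.23 to 1.28, with a lower mid-G1 median log2 ratio on 0 of 20 chromosomes. Over all loops 32.0% of the increase of mean strength from prometaphase to mid-G1 fell between ana/telophase and early-G1 with auxin, 69.3% fell before and -1.28% after. Without auxin 30.8%, 54.5% and 14.7% fell in, before and after the step. CRE loops without auxin also had a lower median in mid-G1 (1.62) than in early-G1 (1.66).

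Longer CRE and dual-function loops had larger steps than shorter ones in CTCF-depleted cells, and structural loops did not. CRE loops up to 200 kb went from a median of 1.38 to 1.51 with auxin, a log2 step of 0.13 ± 0.03, and those above 500 kb from 1.59 to 1.90, a step of 0.22 ± 0.06. Dual-function loops had steps of 0.10 ± 0.03 up to 200 kb and 0.21 ± 0.09 above 500 kb. Structural loops had 0.11 ± 0.05 and 0.08 ± 0.07, and other loops 0.14 ± 0.03 and 0.19 ± 0.07. Among other loops with 10 kb summits the order turned, with 0.15 ± 0.04 up to 200 kb and 0.13 ± 0.18 above 500 kb. The longest loops exceeded the shortest on 18 of 20 chromosomes for CRE, 16 for dual-function, 14 for other and 9 for structural loops.

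Without auxin structural loops followed the same trend as the rest. Their log2 step was 0.28 ± 0.02 up to 200 kb and 0.35 ± 0.06 above 500 kb, with the longest above the shortest on 17 of 20 chromosomes. In the largest size class, between 1000 and 2000 kb, the step with auxin was 0.26 ± 0.10 for 398 CRE loops and 0.11 ± 0.18 for 245 structural loops. The share of loops gaining at least 25% with auxin, 21.1% over all loops, was 34.3% for CRE, 36.3% for dual-function and 23.5% for structural loops above 500 kb. A loss by the same factor, found at 5.19% of all loops, occurred at 12.9% of the long structural loops and 4.37% of the long CRE loops.

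**Figure D4:**
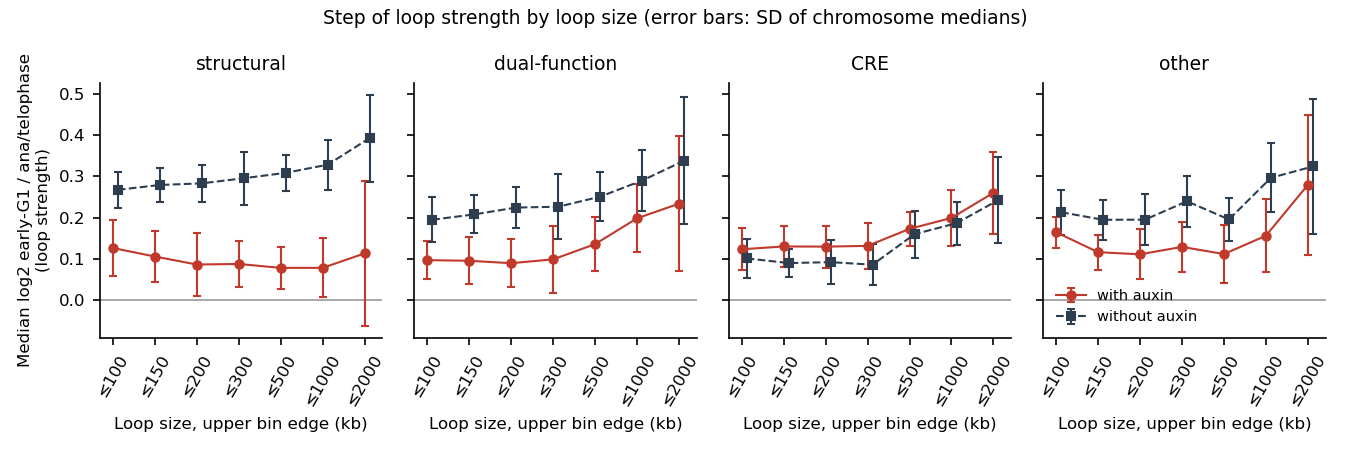
Median log2 ratio of early-G1 to ana/telophase in 7 bins of loop size, by category, with auxin (red circles) and without (dark squares, dashed). Error bars are the SD of the chromosome medians. With auxin the CRE loop points go from 0.12 in the shortest bin to 0.26 in the longest, and the structural loop points from 0.13 to 0.11.

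The stage at which a loop was first called in the auxin treated maps was assigned by the authors from these maps, so the strengths that go with it are a description only. With auxin 2515 loops (15.4%) were first called in early-G1, against 1295 (7.91%) in ana/telophase. They made up 30.1% of CRE loops, 17.2% of dual-function loops, 11.0% of other loops and 3.14% of structural loops. Of the 1398 CRE loops among them, 834 (59.7%) were called at no stage without auxin and 219 (15.7%) had been called in ana/telophase without auxin. The list is the union of the calls of both treatments, so a loop never called without auxin had to be called with it, and over the 2578 CRE loops called at any stage with auxin these shares were 54.7% and 21.8%. The median of the 1398 went from 1.52 to 1.81 over the step with auxin.

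Summits of loops first called in early-G1 were set against those of loops called earlier. Of these 2515 loops, 1133 (45.1%, 95% Wilson interval 43.1 to 47.0) had at least 1 summit within 20 kb of a summit of a loop called in prometaphase or ana/telophase with auxin. The share was 54.1% for dual-function loops, 47.1% for CRE, 31.6% for other and 25.7% for structural loops. Among the 11634 loops called at no stage with auxin it was 24.4%, and for CRE loops alone 41.5%. Among the 908 loops first called in mid-G1 it was 33.4%, and for CRE loops alone 39.8%. The make-up by category differs between these groups. Loops of one anchor share their surroundings and are not independent.

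Loops were also grouped by their first call without auxin, although the loop list itself was merged from calls of both treatments. Structural loops first called in ana/telophase, early-G1 and mid-G1 without auxin numbered 717, 1791 and 2257. Their median strengths in early-G1 with auxin were 1.36, 1.24 and 1.19, and their log2 steps with auxin 0.09, 0.11 and 0.08. CRE loops first called at these stages without auxin had steps with auxin of 0.10, 0.15 and 0.15.

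CRE loops were also divided by starts of protein-coding genes at their summits. With auxin the log2 step was 0.15 ± 0.05 for the 1041 CRE loops without a start at a summit, 0.16 ± 0.04 for the 1795 with a start at 1 summit and 0.14 ± 0.03 for the 1806 with starts at both. Without auxin the respective steps were 0.16 ± 0.03, 0.13 ± 0.03 and 0.09 ± 0.03. These groups differ in size. Up to 200 kb the steps with auxin were 0.14 ± 0.06, 0.15 ± 0.05 and 0.09 ± 0.05 in the same order, and above 500 kb 0.22 ± 0.24, 0.19 ± 0.10 and 0.24 ± 0.08.

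Convergent matches to the motif spellings, on the plus strand at the upstream and the minus strand at the downstream summit, were found at 14.3% of 3857 structural loops with 10 kb summits, and divergent matches at 10.5%. For 3505 CRE loops these shares were 9.59% and 9.27%. Structural loops with convergent matches had log2 steps of 0.10 ± 0.08 with auxin and 0.33 ± 0.07 without, and those with no match at either summit 0.12 ± 0.05 and 0.31 ± 0.05.

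As a yardstick for single features, the step was set beside the difference of another pair of maps, which does not measure the variation between the maps of the step. Both prometaphase maps, which differ in auxin and come from cells in which few loops stand out, gave a median absolute log2 ratio of 0.25 per loop and 0.62 per boundary. The step with auxin gave 0.19 and 0.67. Between the prometaphase maps 16.9% of loops were higher by at least 25% with auxin and 23.1% lower by the same factor, so the 21.1% that gained that much over the step is of the size that separates these maps. Over the step 5.19% of loops lost that much. For boundaries the prometaphase maps gave 22.4% at least 1.5-fold higher and 29.3% lower with auxin, against 48.9% and 8.64% for the step.

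**Figure D5:**
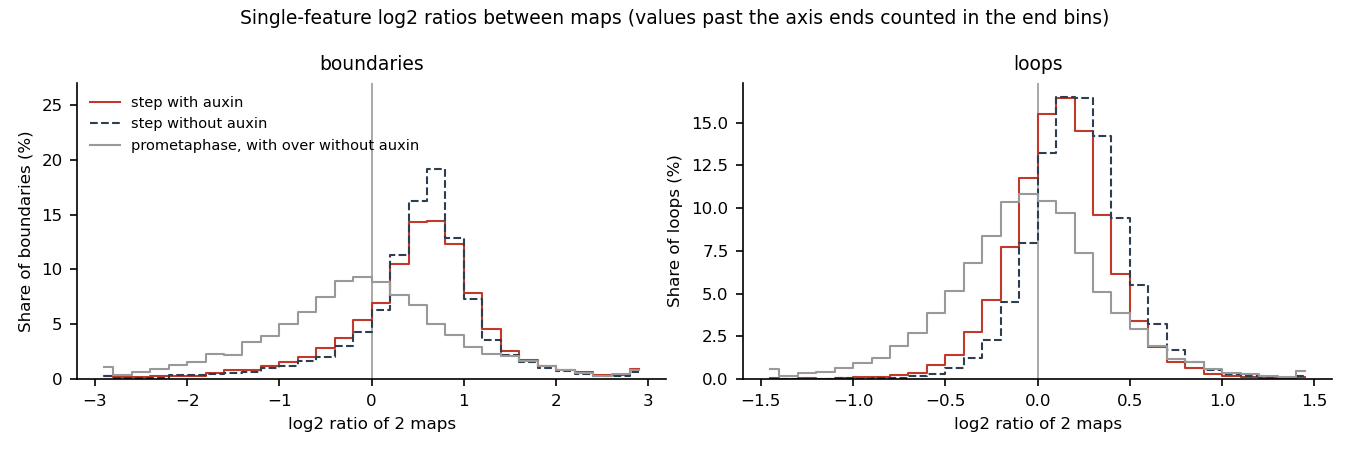
Distribution of single-feature log2 ratios for boundaries (left) and loops (right): early-G1 over ana/telophase with auxin (red), the same without auxin (dark, dashed), and prometaphase with over without auxin (grey). The grey curves lie near 0, while the red curves are shifted to medians of 0.57 for boundaries and 0.13 for loops.

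The order of features by strength was largely kept over the step. Across boundaries, which are not independent replicates, ana/telophase and early-G1 ΔIS with auxin had a Pearson r of 0.92 and a Spearman rho of 0.90, and across loops 0.84 and 0.81. Of the 637 strongest boundaries in ana/telophase, 482 or 75.7% were also among the 637 strongest in early-G1, and of the 1637 strongest loops 1068 or 65.2%. With auxin the lowest rank correlation among loop categories was that of structural loops (rho 0.68), and among clusters 1 to 4 that of cluster 1 (0.69). Without auxin other loops (0.83) and cluster 4 (0.70) were lowest, structural loops standing at 0.87 and cluster 1 at 0.89.

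Genes of erythroid regulation, of globin, heme and membrane, of cohesin and CTCF, and of early response and G1 entry were looked up at loop summits. Read against 69.9% of all loops stronger in early-G1 and 21.1% gaining at least 25%, the 76 loops at 20 erythroid regulators had 52 stronger (68.4%) and 15 past that gain (19.7%), with a median log2 step of 0.13. The 20 loops at 9 globin, heme, iron and membrane genes had 16 stronger and 7 past that gain, with a median of 0.18. The 18 loops at 11 genes of cohesin subunits, loaders and regulators, with none at Ctcf itself, had 16 stronger and 7 past that gain, with a median of 0.21, and the 28 loops at 10 early response and G1 genes had 16 stronger and 5 past that gain, with a median of 0.06. Of the listed genes only Nipbl and Cdk6 had a start in a boundary bin.

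Among the erythroid regulators the strongest loops moved both ways. Here and below, the strongest loop of a gene is the one strongest in early-G1 with auxin. That choice favours high values at that stage. The strongest loop at Tal1, a hematopoietic bHLH factor, joined chr4:114720001-114730000 to chr4:115500001-115510000. Its strength with auxin was 1.19, 1.72, 2.60 and 1.77, and without auxin 1.69, 1.83, 2.14 and 2.09. All 3 loops at Tal1 and all 3 at Lmo2, its LIM-domain partner, were stronger in early-G1 than in ana/telophase with auxin. At Lmo2 the strongest loop read 1.45, 2.40, 2.68 and 2.55 with auxin. For Runx1, a hematopoietic transcription factor, 9 of 10 loops were stronger, the strongest reading 0.914, 2.39, 2.96 and 2.39.

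Neither of the 2 loops at Gata1, the erythroid master regulator, was stronger in early-G1. The stronger of these, between chrX:7540001-7550000 and chrX:7670001-7680000, read 1.101, 2.43, 2.02 and 1.89 with auxin and 1.21, 1.501, 1.32 and 1.24 without. The highest value of both courses was that of ana/telophase. Of 5 loops at Gata2, a factor of earlier progenitors, 2 were stronger in early-G1 with auxin. The strongest, to Mcm2, read 1.79, 2.39, 2.04 and 1.94 with auxin and 1.34, 2.71, 2.57 and 2.74 without. Another, a CRE loop of 1670 kb to Pcbp1 that was among the largest decreases, read 1.52, 3.61, 1.87 and 1.36 with auxin and 1.88, 2.78, 0.850 and 1.77 without. Neither loop at Lyl1, a bHLH factor related to Tal1, was stronger in early-G1 with auxin, and the strongest read 2.06 and then 1.75.

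Both loops at Epor, the erythropoietin receptor gene, were stronger in early-G1 with auxin. The strongest of these joined the pair of bins whose facing motif matches are printed near the start. It read 1.01, 1.66, 1.83 and 1.75 with auxin and 1.20, 2.05, 2.51 and 2.24 without, lower with auxin at every stage. All 4 loops at Bcl2l1, a survival gene, were stronger, and the strongest, a dual-function loop, read 1.52 and then 1.93 with auxin, and 1.76 and 1.94 without. Cited2, a transcriptional co-regulator, had 5 of 7 loops stronger, and its strongest read 1.97 and then 2.65 with auxin.

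All 3 loops at Urod, a heme synthesis enzyme gene, were stronger in early-G1 with auxin, and the strongest read 1.54 and then 1.73. The loop at Hba-a2, an alpha-globin gene with a near-identical neighbour, read 1.27 and then 1.18 with auxin, and 1.72 and then 1.88 without.

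At the cohesin genes 15 of the 18 loops were also stronger in early-G1 without auxin, and 7 passed that gain, with a median log2 step of 0.26. The CRE loop at Rad21, the kleisin subunit, read 0.949, 1.69, 1.83 and 2.04 with auxin and 1.16, 1.70, 1.86 and 1.89 without, so both courses were close. The loops given here are those strongest in early-G1 with auxin, which favours high values there. At Smc3, a core subunit, strength was 1.79 and then 2.65 with auxin, and 2.72 and 2.50 without. At Esco2, a cohesin acetyltransferase gene, it was 2.003 and then 2.57 with auxin, and 2.29 and then 1.501 without. The Nipbl boundary, at the gene of the cohesin loader, had a ΔIS of 0.359 and then 0.430 with auxin, and 0.211 and then 0.372 without.

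A loop at Cdkn1b, which encodes the cell cycle inhibitor p27, was among the largest increases of all CRE loops with 10 kb summits. It spanned 1880 kb between chr6:134870001-134880000 and chr6:136750001-136760000, where starts of H2afj and Hist4h4, a histone H2A and a histone H4 gene, lay. Its strength was 2.82, 2.93, 5.61 and 3.35 with auxin and 1.17, 2.07, 4.23 and 2.97 without, highest in early-G1 in both. Another large increase among CRE loops was at Gclm, a glutathione synthesis gene, with 1.24, 1.38, 3.99 and 1.81 with auxin and 1.71, 2.09, 2.42 and 2.70 without. The remaining one, at chr19:6630001-6640000 and chr19:6900001-6910000, already read 8.57 in prometaphase with auxin and 7.71 without, and went from 6.30 to 9.58 with auxin.

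The immediate early genes Ier2 and Junb, joined by a loop of 320 kb on chromosome 8, had few loops that were stronger. That loop is counted for both genes, so their counts are not separate observations. Egr1, another early response gene of the list, had 1 loop, on chromosome 18. It was stronger in early-G1 with auxin, with a log2 step of 0.08. None of the 3 loops at Junb was stronger in early-G1 with auxin, and the strongest, a CRE loop joining it to Ier2, read 2.19 and then 1.81 with auxin and 2.37 and then 1.66 without. At Ier2 1 of 4 loops was stronger, a CRE loop to Mri1 that read 1.94 and then 3.01 with auxin and 1.70 and then 1.62 without. All 4 loops at Cdk4, a G1 kinase gene, were stronger with auxin, the strongest reading 1.85 and then 2.16. At Cdkn1a, encoding the inhibitor p21, 1 of 3 loops was stronger.

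The 3 largest single increases of structural loops, like 94.6% of all structural loops, were at sites never called with auxin. The largest, between chr15:40990001-41000000 and chr15:41800001-41810000, read 1.19, 1.60, 3.43 and 4.35 with auxin and 0.407, 2.20, 3.24 and 4.17 without, so its early-G1 and mid-G1 values were close in both treatments. The 2 others, on chromosomes 13 and 10, read 1.52 and 2.75 in prometaphase, 0.719 and 0.780 at the start of the step, both 2.39 at its end, and then 1.30 and 1.69 in mid-G1, so that the latter was higher in prometaphase than after the step. The largest decreases included a loop between chr13:111170001-111180000 and chr13:112200001-112210000 that read 2.46 and then 1.20 with auxin, while without auxin it read 2.95 and then 5.09. A short loop at chr5:76440001-76450000 and chr5:76540001-76550000 went from 9.15 to 7.00 with auxin, but had already read 6.98 in prometaphase.

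Dual-function loops gave single changes of like size. The loop from Tctn2, a ciliary transition zone gene, to Ccdc92 read 3.77 and then 5.68 with auxin and 3.42 and then 6.36 without. A loop from a bin with starts of Chmp2a and Ube2m to a bin with a start of the DNA ligase gene Lig1 read 2.19 and then 3.86 with auxin, against 1.87 and 2.28 without. The loop between Cish, a feedback inhibitor of cytokine signalling, and Uba7 read 4.09 and then 2.32 with auxin, and 3.40 and then 3.22 without. With 1 value per map, none of these single changes carries an error.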

How the data were processed

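The authors made in situ Hi-C libraries at 4 stages with and without auxin. Groups follow the labels of 18 libraries in 8 conditions, and the 4 triptolide libraries were left out. The authors aligned reads to mm9 with Bowtie2 within HiC-Pro, merged the replicates of each condition, called domains with rGMAP and called loops at 10 and 25 kb resolution with a modified HICCUPS.

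The deposited boundary values are a signal that is never negative, ΔIS from balanced 10 kb maps normalised by the authors to the chromosome average. The deposited loop values are a ratio, observed contacts over a local expectation, the authors' mean over the summit pixel and its 8 neighbours. Other deposited columns (cluster, category, loop size, stage of first call) are the authors' labels. Merging removes the error between replicates, so that values were described by medians, counts and log2 ratios of early-G1 to ana/telophase without a pseudocount, with the SD over 20 chromosomes. The number of contacts behind each value is not given in the tables. Shares carry 95% Wilson intervals for counting error only where given.

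No coordinate exceeded its chromosome in NCBIM37, the assembly known as mm9. Starts are those of protein-coding transcripts of GENCODE vM1, which holds 22232 such genes. A boundary was assumed to be the 10 kb bin that begins at its deposited coordinate, which motif shares of the neighbouring bins do not settle. Starts, motif shares and sequences of boundary bins depend on it. Motifs were searched in 249230 other bins with known sequence, and motif windows were read from the same assembly. All printed motif windows were chosen after their values were seen.

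Named sites are the 5 boundaries of clusters 1 to 4 with the largest increase and decrease of ΔIS with auxin, and in each category, among loops with 10 kb summits, the 3 largest increases reaching 1.5 in early-G1 and the 3 largest decreases from at least 1.5. In addition, for listed genes, the loop strongest in early-G1 with auxin is given. Only some are printed. The members and lists were chosen with earlier results of these data known. Alternatives covered thresholds, pseudocounts, filters on strength, summit width, means in place of medians, size bins, distances and chromosome 3. The scale of excess over expected and the range of matched strength were chosen after seeing the data. The functions were tested on simulated data. Tool versions were numpy 2.4.6, scipy 1.17.1, pandas 2.3.3, matplotlib 3.10.9 and Python 3.11.15.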

Additional observations from a re-analysis of the deposited data

How the results depend on the processing

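No paired analysis was possible because the tables used hold merged replicates, and for the same reason no replicate was left out. Maps of single replicates were not analysed here. No median step changed sign under any alternative run. Of 76 alternatives, which include counts and shares, 57 stayed within the spread over chromosomes or within 1.5 times the count. Adding 0.1 to both values lowered the log2 boundary step from 0.57 to 0.40, that of cluster 1 from 0.29 to 0.13, and that of clusters 2, 3 and 4 to 0.51, 0.55 and 0.31, and left 2032 of 3120 boundaries past 1.5-fold. Boundaries with a mean strength of at least 0.2 had a step of 0.66, and the ratio of means gave 0.62. At 2-fold 1341 boundaries passed. Loops past the threshold numbered 3456 for a gain of 25%, 7881 at 1.1-fold, 790 at 1.5-fold and 579 among those with 25 kb summits, which are fewer. The log2 step of the excess over expected was 0.54 for structural, 0.41 for dual-function, 0.40 for CRE and 0.46 for other loops, so the order of categories with auxin depends on this scale. At matched strength the structural step was 0.12, and the dual-function step, 0.10, was the lowest. With terciles of size, the longest other loops exceeded the shortest by 0.0039 instead of 0.05. The median of single boundary shares put 42.6% of the rise in the step. Boundary bins with a start numbered 944, or 2261 with 10 kb on either side, and the first motif spelling alone left 1054 of 2935 bins.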
